A study of Homo sapiens with 6 samples.

Results

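The genes described here are 10 genes of the NRF2 pathway, the cell's response to oxidants and electrophiles, taken by name from a deposited table of 58735 genes: NFE2L2, KEAP1, GCLC, GCLM, GSR, TXN, TXNRD1, SRXN1, NQO1 and HMOX1. Each symbol matched 1 row, and all 10 genes passed the filter on low counts together with 17299 genes in all. They were measured by RNA-seq in Ishikawa cells, an established human endometrial cancer cell line, at 48 hours after transfection with a lipid reagent. The siNC group (3 libraries) received a control siRNA and the siTCF19 group (3 libraries) an siRNA against TCF19. All 6 libraries come from the same line in serum-containing DMEM, and the labels name no untransfected cells and no second siRNA sequence. The submitters describe triplicates but no separate cultures, and a p-value therefore speaks only for the spread among these 6 samples, technical spread included.

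NRF2, the product of NFE2L2, is a transcription factor that binds antioxidant response elements as a partner of small MAF proteins. KEAP1 holds NRF2 in the cytosol and hands it to a CUL3 ubiquitin ligase for destruction, and oxidants or electrophiles that modify KEAP1 let NRF2 accumulate. NRF2 is therefore controlled largely at the protein level, which an RNA count does not measure. Its best known target genes make and recycle glutathione, reduce thioredoxin, detoxify quinones and degrade haem.

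TCF19, the targeted gene, was counted 2572, 2905 and 2756 times in the siNC libraries and 675, 529 and 606 times in the siTCF19 libraries, so each siTCF19 library lay below each siNC library. Its log2 fold change was -2.20 ± 0.06 (SE, edgeR adjusted p = 6.15e-29). Library totals ran from 14680022 to 16244705 counts, and 3 counts, the limit below which a level is not told from 0, equalled 0.19 to 0.206 CPM (counts scaled per library by TMM). Of 8 epithelial markers fixed for the cell type, 7 were tested, and the oestrogen receptor gene ESR1 had 0 to 4 counts. Of the 7, CDH1 (log2 fold change 0.61), KRT19 (0.44) and MUC1 (0.70) rose, KRT8 (-0.40) and KRT18 (-0.43) fell, and EPCAM (506 and 493 CPM in siNC and siTCF19) and PAX8 (861 and 847 CPM) were not called. The summed level of the epithelial markers was 2874 to 3000 CPM in siNC and 2708 to 2830 CPM in siTCF19. Of 4 leukocyte markers 0 reached the filter. Of 5 fibroblast markers the collagen genes COL1A1 and COL1A2 did, at a summed 177 to 180 CPM in siNC and 124 to 134 CPM in siTCF19, with DCN at 0 in all 6. COL1A1 rose (0.58) and COL1A2, the more abundant, fell (-0.66). Of 3 endothelial markers VWF and CDH5 passed, at a summed 5.6 to 6.48 and 13.6 to 17.2 CPM. VWF rose (1.60, from a mean of 5.13 to 15.5 CPM) while CDH5 fell (-1.89, from 0.978 to 0.259 CPM). CDH5 had only 12, 14 and 19 counts in siNC and 5, 4 and 3 in siTCF19, close to the limit of 3 counts. The mitochondrial share of counts was 3.49% to 3.65% (siNC) and 3.92% to 4.08% (siTCF19). The part of these marker levels and of the mitochondrial share in the results below was not tested.

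The 10 genes did not move in 1 direction when TCF19 was knocked down. GCLM, GSR, SRXN1 and HMOX1 rose, NQO1 and TXN fell, and NFE2L2, KEAP1, GCLC and TXNRD1 were not called. Calls were made below an adjusted p of 0.05 in edgeR's quasi-likelihood test, adjusted over all 17299 tested genes. The 6 of 10 called stand beside 41.5% of all tested genes called, the 4 rises beside 20.7% called higher and the 2 falls beside 20.8% called lower. The median log2 fold change was 0.04 over the 10 genes and 0.00 over all tested genes, and the 10 values ran from -0.31 to 1.60. In 7 of 10 genes every library of 1 group lay above every library of the other, as in 49.2% of all tested genes. The 6 calls are spread over the roles in the pathway: glutathione synthesis and recycling hold 2 rises, the thioredoxin branch 1 rise and 1 fall, and the quinone and haem enzymes 1 fall and 1 rise.

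**Figure D1:**
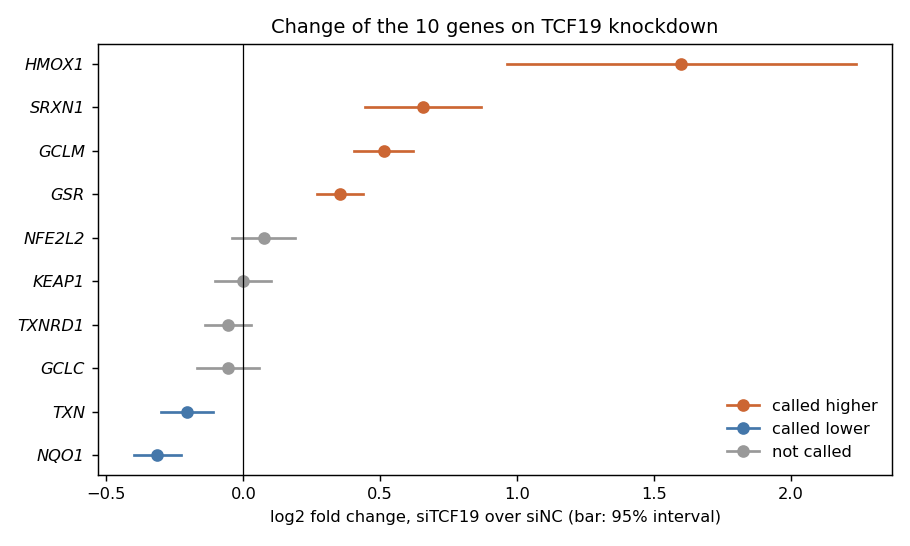
Log2 fold change of each of the 10 genes, siTCF19 over siNC, from edgeR (points) with 95% intervals (bars), coloured by call. HMOX1 lies highest at 1.60 with the widest interval, NQO1 lowest at -0.31, and the intervals of NFE2L2, KEAP1, TXNRD1 and GCLC cross 0.

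Neither NRF2 nor its inhibitor was called at the RNA level. NFE2L2 (ENSG00000116044, hg38 chromosome 2, 177227595 to 177392697, minus strand) had 1119, 1235 and 1220 counts in siNC against 1311, 1278 and 1210 in siTCF19, which gave 76.9, 78.6 and 78.3 CPM against 82.9, 85.4 and 78.0 CPM. The siTCF19 libraries reached higher, but the lowest of them lay among the siNC libraries. The transcript was at 1.05 times its siNC level (95% interval 0.973 to 1.14, edgeR adjusted p = 0.309). With library-size-only scaling its log2 fold change was 0.135, just short of a call (edgeR adjusted p = 0.0512). A gene model on the same strand as NFE2L2, AC019080.1, shares 17.6% of its exon bases and had 3 to 8 counts per library. KEAP1 (ENSG00000079999, chromosome 19, 10486120 to 10503741, minus strand) had 2074, 2444 and 2358 counts in siNC against 2403, 2142 and 2380 in siTCF19. This equalled 143, 156 and 151 CPM against 152, 143 and 153 CPM, and the groups overlapped. KEAP1 was at 0.998 times its siNC level (95% interval 0.93 to 1.07, edgeR adjusted p = 0.973), and its log2 fold change was above 0 with upper-quartile scaling (0.0033), library-size-only scaling (0.057) or protein-coding genes only (0.0042).

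The binding site of NRF2 has the core TGACNNNGC, searched here on both strands of 300-base windows from 250 bases before to 50 bases after the transcription start (RefSeq, GRCh38.p14). Of the 10 genes 8 had a window, in 11 windows in all, and HMOX1 and GSR had none. The core was in windows of GCLM, TXNRD1 and KEAP1. This is 3 of 8 genes (37.5%) beside 16.1% of all 27305 genes with a RefSeq window, tested here or not. By window it is 4 of 11 (36.4%) beside 13.3% of all 35116 windows. No core was found in the windows of NFE2L2, GCLC, TXN, SRXN1 and NQO1. Bases outside the windows were not searched, so a gene without a match here may hold the core elsewhere. The matches are shown to let the letters of GCLM, which rose, be set beside those of KEAP1 and TXNRD1, which were not called. Capitals mark the core, each sequence is written 5′ to 3′ on the strand given, and distances count from the start site of the window.
GCLM, chr1:93909446-93909474, plus strand, core at -34 to -26: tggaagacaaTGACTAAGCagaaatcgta
KEAP1, chr19:10502784-10502812, plus strand, core at -31 to -23: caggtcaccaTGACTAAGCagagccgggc
KEAP1, chr19:10502807-10502835, minus strand, core at -54 to -46: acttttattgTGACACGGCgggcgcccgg
TXNRD1, second start, chr12:104286920-104286948, minus strand, core at -102 to -94: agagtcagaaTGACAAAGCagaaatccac
TXNRD1, first start, chr12:104215670-104215698, plus strand, core at -99 to -91: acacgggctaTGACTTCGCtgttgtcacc
TXNRD1, first start, chr12:104215761-104215789, minus strand, core at -8 to 1: ctgtgggaacTGACGGAGCcgaaggacgc

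The GCLM match and the first KEAP1 match shared a run of 13 bases, aTGACTAAGCaga, which holds the whole core. The GCLM match and the match at the second TXNRD1 start shared a run of 11 bases, AAGCagaaatc, across the end of the core and its flank. Of these 3 genes with like letters close to the start, GCLM rose and KEAP1 and TXNRD1 were not called. A match is a description of the letters and not a measured binding site, and no binding was measured in these cells.

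Glutamate-cysteine ligase, which makes the first bond of glutathione, consists of a catalytic subunit (GCLC) and a modifier subunit (GCLM), of which GCLM was called. GCLM (ENSG00000023909, chromosome 1, 93885205 to 93909456, minus strand) had 1480, 1523 and 1517 counts in siNC and 2231, 2226 and 2051 in siTCF19. These equalled 102, 96.9 and 97.3 CPM against 141, 149 and 132 CPM, and the groups did not overlap. GCLM rose 1.43-fold (95% interval 1.32 to 1.54, edgeR adjusted p = 1.49e-10). GCLC (ENSG00000001084, chromosome 6, 53497341 to 53616970, minus strand) had 1225, 1324 and 1384 counts in siNC against 1285, 1264 and 1268 in siTCF19, which gave 84.2, 84.3 and 88.8 CPM against 81.3, 84.4 and 81.8 CPM. Its groups overlapped, and it stood at 0.962 times its siNC level (95% interval 0.89 to 1.04, edgeR adjusted p = 0.452). A gene model on its strand, AL033397.1, shares 6.12% of the GCLC exon bases and had 0 to 3 counts per library.

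Per length, the ratio of GCLC to GCLM within a library was 0.519, 0.545 and 0.572 in siNC and 0.361, 0.356 and 0.388 in siTCF19. All siTCF19 libraries thus held less catalytic subunit transcript per modifier transcript. The mean ratio went from 0.545 ± 0.027 to 0.368 ± 0.017 (SD, n = 3 per group), a log2 difference of -0.57 (two-sided exact permutation p = 0.1, the smallest that 3 against 3 allows, and 0.133 adjusted over the 4 ratios compared). The difference was 8.07 times the larger group SD of the log2 ratio.

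Glutathione reductase, the product of GSR, returns oxidised glutathione to its reduced form with NADPH. GSR (ENSG00000104687, chromosome 8, 30678061 to 30727999, minus strand) had 7775, 8472 and 8029 counts in siNC against 10702, 10022 and 10585 in siTCF19, which gave 534, 539 and 515 CPM against 677, 669 and 682 CPM. The siTCF19 libraries were all higher and close to each other. GSR rose 1.28-fold (95% interval 1.20 to 1.35, edgeR adjusted p = 3.17e-09), from a mean of 529.6 ± 12.7 to 676 ± 6.58 CPM (SD, n = 3).

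In the thioredoxin branch the carrier and the repair enzyme went opposite ways. Thioredoxin (TXN, ENSG00000136810, chromosome 9, 110243811 to 110256640, minus strand) passes electrons to peroxiredoxins and ribonucleotide reductase. It had 3846, 3836 and 3786 counts in siNC against 3488, 3201 and 3366 in siTCF19, which gave 264, 244 and 243 CPM against 221, 214 and 217 CPM, with siNC replicate 1 the highest library. TXN fell to 0.867 times its siNC level (95% interval 0.812 to 0.926, edgeR adjusted p = 0.000422), the smallest change among the 6 called genes. The table also lists 7 processed copies of TXN, of which the most counted, TXNP4, held 24 counts over the 6 libraries.

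Thioredoxin reductase 1 (TXNRD1, ENSG00000198431, chromosome 12, 104215779 to 104350305, plus strand) reduces thioredoxin with NADPH. It was counted 8724, 9012 and 9123 times with siNC and 8978, 8544 and 8578 times with siTCF19, giving 600, 574 and 585 CPM against 568, 571 and 553 CPM. The siTCF19 libraries all lay just below the siNC libraries, but the gene was not called at 0.962 times its siNC level (95% interval 0.907 to 1.02, edgeR adjusted p = 0.305), and with library-size-only scaling its log2 fold change was 0.0044. A ribosomal protein pseudogene inside the TXNRD1 gene, RPL18AP3, held 853 to 1118 counts but shared 0 exon bases with it. The FPKM ratio of TXNRD1 to TXN was 0.386, 0.4 and 0.41 in siNC and 0.438, 0.454 and 0.434 in siTCF19. It was higher in all 3 siTCF19 libraries, by 0.15 on the log2 scale (two-sided exact permutation p = 0.1, adjusted 0.133).

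Sulfiredoxin 1 (SRXN1, ENSG00000271303, chromosome 20, 646615 to 653370, minus strand) repairs over-oxidised peroxiredoxins. SRXN1 had 173, 208 and 174 counts in siNC against 311, 275 and 297 in siTCF19, which gave 11.9, 13.2 and 11.2 CPM against 19.7, 18.4 and 19.1 CPM. The groups were well apart, and SRXN1 rose 1.58-fold (95% interval 1.36 to 1.83, edgeR adjusted p = 1.87e-06). In the annotation, 85% of its 2698 exon bases also belong to AL121758.1, a protein-coding gene model on the same strand, and the counting rule for reads in shared bases is not known from the labels or the table. The level of SRXN1 is therefore uncertain. AL121758.1 itself had 2, 7 and 1 counts in siNC and 14, 15 and 10 in siTCF19. With the counts of the 2 models added together, a check chosen after seeing the data, the log2 fold change was 0.69 (edgeR adjusted p = 5.99e-07) beside 0.66 for SRXN1 alone. The few counts of AL121758.1 could move the value little, and reads counted for neither model are not in this sum. The check therefore does not settle how shared reads affect SRXN1.

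The disulfide reductases of the glutathione and thioredoxin systems, GSR and TXNRD1, were also set against each other within libraries. Their FPKM ratio was 1.59, 1.68 and 1.57 in siNC and 2.13, 2.09 and 2.2 in siTCF19, with no overlap and a log2 difference of 0.41 (two-sided exact permutation p = 0.1, adjusted 0.133). The ratio of NFE2L2 to KEAP1 did not separate the groups: it was 0.339, 0.318 and 0.325 in siNC and 0.343, 0.375 and 0.32 in siTCF19 (log2 difference 0.08, two-sided exact permutation p = 0.4, adjusted 0.4). With 1 library left out, the last difference ran from 0.02 (without siTCF19 replicate 2) to 0.13 (without siTCF19 replicate 3).

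**Figure D2:**
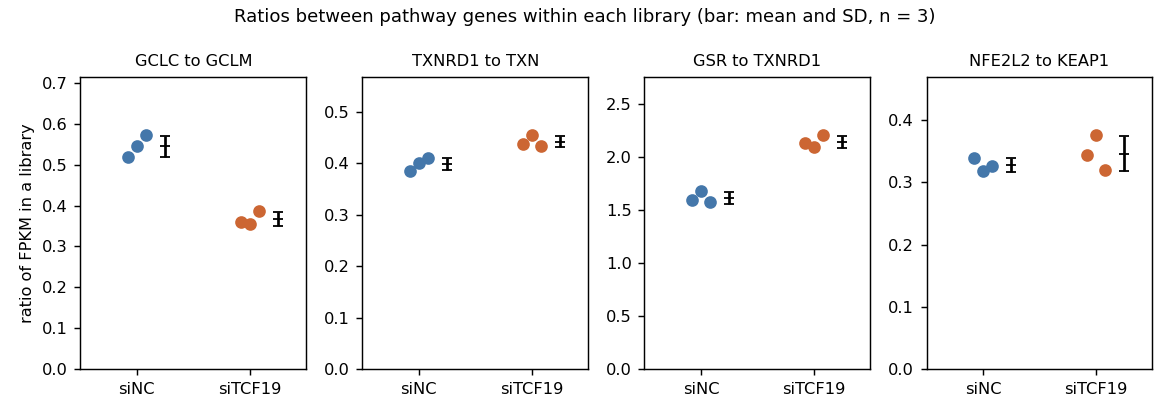
Ratio of the FPKM values of 2 genes within each library for 4 fixed pairs (points are libraries, bars are mean and SD of 3 libraries). The GCLC to GCLM ratio lies lower and the GSR to TXNRD1 and TXNRD1 to TXN ratios lie higher in every siTCF19 library, and the NFE2L2 to KEAP1 ratios of the groups overlap.

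NQO1, a quinone reductase that is among the most used readouts of NRF2 activity, went down. NQO1 (ENSG00000181019, chromosome 16, 69706996 to 69726951, minus strand) had 8216, 8769 and 8663 counts in siNC against 6963, 6688 and 7171 in siTCF19, which gave 565, 558 and 556 CPM against 441, 447 and 462 CPM. All siTCF19 libraries lay below all siNC libraries. NQO1 fell to 0.804 times its siNC level (95% interval 0.758 to 0.853, edgeR adjusted p = 5.8e-08). An antisense gene model, AC092115.2, covers 17.7% of its exon bases and had 0 counts in every library.

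Haem oxygenase 1 (HMOX1, ENSG00000100292, chromosome 22, 35380361 to 35394214, plus strand) breaks haem down to biliverdin, iron and carbon monoxide, and it had the largest fold change of the 10 genes and the fewest counts. HMOX1 had 11, 12 and 15 counts in siNC against 40, 36 and 41 in siTCF19, which gave 0.756, 0.764 and 0.962 CPM against 2.53, 2.4 and 2.64 CPM. Every siTCF19 library lay far above every siNC library. HMOX1 rose 3.03-fold (95% interval 1.95 to 4.72, edgeR adjusted p = 5.84e-05). At this depth the size is known only within that interval, and on the log2(FPKM + 1) scale, where the added 1 flattens low genes, the value was 0.61 (limma adjusted p = 0.000269). The authors' deposited table lists 1.61 for HMOX1, 0.66 for SRXN1, 0.51 for GCLM, 0.35 for GSR, -0.21 for TXN and -0.32 for NQO1 as log2 fold changes in the same libraries.

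Levels of different genes were compared per length, as deposited FPKM. In siNC the order was TXN (217 ± 10.8 FPKM), NQO1 (170 ± 1.79), GSR (140 ± 3.77), TXNRD1 (86.6 ± 1.95), KEAP1 (39.5 ± 1.74), GCLM (18.0 ± 0.51), NFE2L2 (12.9 ± 0.14), GCLC (9.83 ± 0.27), SRXN1 (4.45 ± 0.4) and HMOX1 (0.341 ± 0.047), each mean ± SD with n = 3. No neighbours in that order overlapped in their 3 libraries. The place of SRXN1 is uncertain in both groups, because 85% of the exon bases in its length also belong to AL121758.1. If reads in those bases were left uncounted, its FPKM is too low. In siTCF19 GSR (178 ± 2.3 FPKM) stood above NQO1 (137 ± 3.34 FPKM), the reverse of siNC, and the other 8 genes kept their places. TXN stayed first at 188 ± 3.81 FPKM, and HMOX1 last at 1.04 ± 0.052 FPKM.

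**Figure D3:**
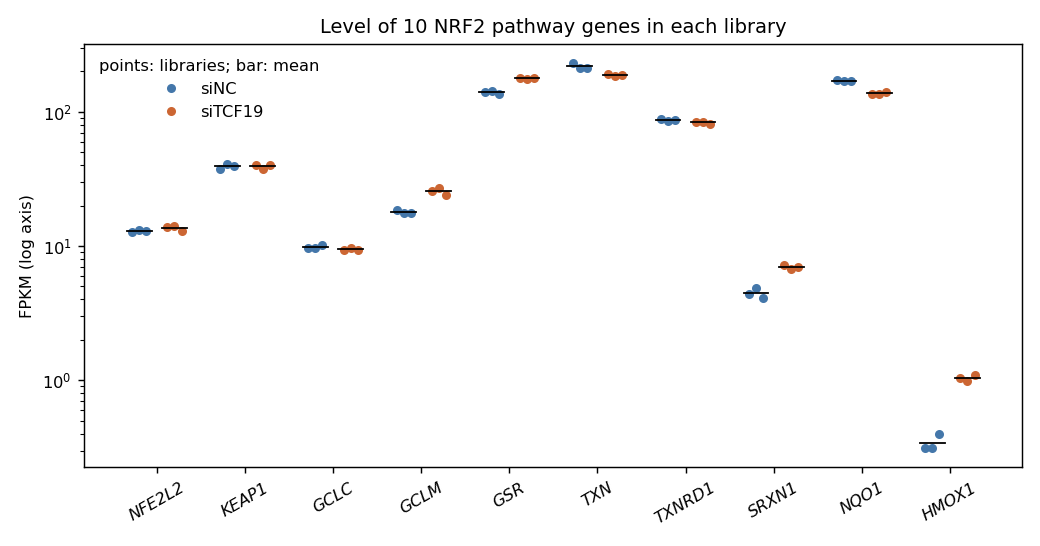
FPKM of the 10 genes in each of the 6 libraries on a log axis, with siNC and siTCF19 side by side (points are libraries, bars are group means). TXN, NQO1, GSR and TXNRD1 lie above the other genes in both groups, HMOX1 lies lowest, and NQO1 and GSR exchange places between the groups.

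Partners and regulators of NRF2 outside the 10 genes were mostly higher where they were called: 7 of 17 rose, 1 fell and 9 were not called, with a median log2 fold change of 0.14. SQSTM1, an autophagy receptor that binds KEAP1, rose by 0.53 on the log2 scale, from 260, 256 and 260 CPM to 387, 366 and 371 CPM (edgeR adjusted p = 3.41e-13). NFE2L1, a related factor that binds the same element, rose by 0.35 and MAFG, a small MAF partner, by 0.29. FBXW11, a substrate receptor of another ubiquitin ligase that acts on NRF2, rose by 0.22, and the coactivator CREBBP by 0.18. BACH1, a repressor of HMOX1 that competes for the same element, was at 35.7, 31.8 and 33.9 CPM in siNC and 38.7, 41.1 and 38.5 CPM in siTCF19. It rose by 0.22 (edgeR adjusted p = 0.014), a call lost without siNC replicate 2 (adjusted p = 0.0827), with limma on log2(FPKM + 1) (0.0622) and at an adjusted p under 0.01. PGAM5, a mitochondrial phosphatase that binds KEAP1, fell (-0.34), and CUL3 (-0.11, edgeR adjusted p = 0.183) was not called.

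Other genes linked to NRF2 by function were split like the 10 genes. Of 65 genes in 5 lists, 62 were tested, and 22 rose, 17 fell and 23 were not called, with a median log2 fold change of 0.03. All lists stand beside the shares of all tested genes given above, 20.7% higher and 20.8% lower.

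The listed genes of NADPH supply, a cofactor that GSR, TXNRD1 and NQO1 all consume, were lower where they were called: 3 of 5 fell, 0 rose and 2 were not called (median -0.35). TKT of the pentose phosphate pathway fell from 814, 893 and 832 CPM to 567, 541 and 589 CPM, a log2 fold change of -0.58 (edgeR adjusted p = 1.91e-14). PGD (-0.35), an NADPH-making enzyme of that pathway, and IDH1 (-0.37), which makes NADPH from isocitrate, also fell. TALDO1 (0.09, edgeR adjusted p = 0.0808) and ME1 (0.09, 0.234) were not called. DESeq2 and limma-voom likewise called 0 rises, and edgeR gave 1 (TALDO1) when an unadjusted p under 0.05 was enough. With library-size-only scaling 2 rises were called, ME1 and TALDO1. TALDO1 was also called with protein-coding genes only (adjusted p = 0.044) and without siTCF19 replicate 2 (0.0215), and ME1 without siTCF19 replicate 3.

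Glutathione genes beyond GCLC, GCLM and GSR went in both directions, with 6 rises, 7 falls and 10 not called of 23 (median -0.02). The cystine transporter showed this within 1 protein complex: its heavy chain SLC3A2 rose by 0.47 and its light chain SLC7A11 fell (-0.30). SLC7A11 was at 332, 313 and 320 CPM in siNC and 263, 275 and 248 CPM in siTCF19, and SLC3A2 at 301, 324 and 316 CPM and 430, 416 and 455 CPM. GSS, which completes glutathione, fell (-0.28), as did GGT1 (-0.64), which cleaves it outside the cell, and the transferase MGST1 (-0.22). The transferases MGST3 (0.35), GSTM4 (0.33) and GSTA4 (0.45), glutaredoxin (GLRX, 0.39) and the conjugate exporter ABCC1 (0.17) rose.

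Quinone, carbonyl and drug enzymes had 7 rises, 4 falls and 2 not called among 13 tested of 16 (median 0.30). ALDH3A1, an aldehyde dehydrogenase, fell from 134, 175 and 154 counts to 31, 10 and 20 (log2 fold change -2.93, edgeR adjusted p = 5.35e-15). AKR1B10, an aldo-keto reductase, rose from 14, 18 and 8 counts to 58, 49 and 50 (1.95, edgeR adjusted p = 6.54e-07). On the log2(FPKM + 1) scale these values were -1.42 and 0.97. PIR (0.38), PTGR1 (0.31) and AKR1C1 (0.82, or 0.31 on the log2(FPKM + 1) scale) rose, and AKR1C1 has close copies that can share its reads. CBR1 (-0.39), AKR1B1 (-0.19) and AKR1A1 (-0.13) fell. The call of AKR1A1 was lost with library-size-only scaling (adjusted p = 0.294), no filter (0.0538), DESeq2 (0.0606), limma on log2(FPKM + 1) (0.0733) and the replicate block (0.0782). It was also lost at an adjusted p under 0.01, without siNC replicate 2 (adjusted p = 0.25, log2 fold change -0.08) and without siTCF19 replicate 1 (0.0651), 2 (0.136) or 3 (0.0684). The call of AKR1B1 was lost with library-size-only scaling (0.0622) and without siNC replicate 3 (0.0504).

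Of 9 genes that handle haem and iron, 4 rose, 1 fell and 4 were not called (median -0.05). The ferritin chains FTH1 and FTL, which store the iron that haem oxygenase frees, rose by 0.70 and 0.41. FTH1 was at 841, 879 and 869 CPM in siNC and 1474, 1332 and 1391 CPM in siTCF19, but both ferritin genes have many processed copies that can share their reads. Of the biliverdin reductases, BLVRB rose by 0.28 and BLVRA fell (-0.36). HMOX2, the constitutive haem oxygenase, was not called (-0.13, edgeR adjusted p = 0.11), but was called lower without siNC replicate 1 (-0.20, adjusted p = 0.021). ABCB6, a porphyrin transporter, rose by 0.47 (edgeR adjusted p = 0.0261), a call lost with no filter (0.0541), DESeq2 (0.127), limma on log2(FPKM + 1) (0.0583, value 0.22) and at an adjusted p under 0.01. It was also lost without siNC replicate 2 (0.0502) or 3 (0.0727) and without siTCF19 replicate 1 (0.107) or 3 (0.0861).

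Among 12 other stress genes 5 rose, 2 fell and 5 were not called (median 0.07). OSGIN1, a growth inhibitor gene induced by oxidants, was at 31.1, 33.5 and 29 CPM in siNC and 85, 76.9 and 86.6 CPM in siTCF19, a log2 fold change of 1.41 (edgeR adjusted p = 1.46e-20). ABHD4 (0.82) and TRIM16L (0.45), which has a close relative in TRIM16, also rose. The long non-coding RNA LUCAT1 rose from 22, 23 and 20 counts to 63, 51 and 60 (1.40, or 0.17 on the log2(FPKM + 1) scale). The glycine transporter SLC6A9 (-0.57) and the peroxiredoxin PRDX6 (-0.23) fell.

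Partners of thioredoxin also went in both directions, with 4 rises, 3 falls and 6 not called of 13 (median -0.01). TXNIP, which binds and inhibits thioredoxin, rose by 0.56, from 118, 109 and 113 CPM to 166, 167 and 166 CPM (edgeR adjusted p = 3.03e-12). The mitochondrial reductase TXNRD2 (0.35) rose, a call lost on the log2(FPKM + 1) scale (limma adjusted p = 0.0536), and TXNRD3 (-0.41) fell. PRDX5 (0.29) rose, and PRDX4 (-0.19) and TXNDC17 (-0.26) fell.

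**Figure D4:**
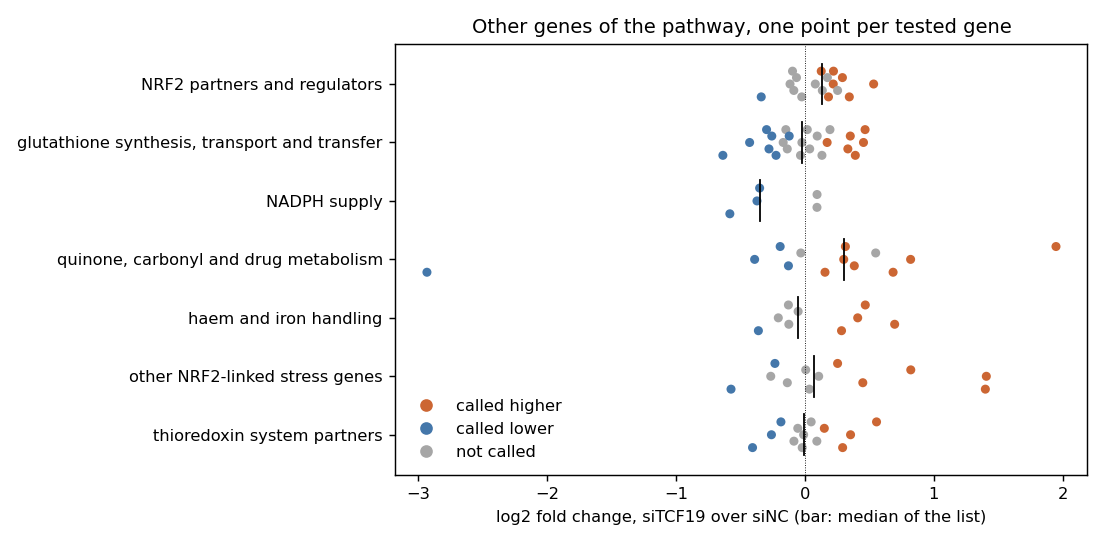
Log2 fold change, siTCF19 over siNC, of each tested gene in 7 lists of pathway genes outside the 10 members, coloured by call, with the median of each list as a bar. The NADPH supply list has its median at -0.35 and 0 genes called higher in this fit, and each of the other lists holds calls on both sides of 0.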

How the data were processed

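RNA-seq counts of 6 libraries (3 siNC, 3 siTCF19) were analysed. Per the submitters' processing notes, HISAT2 2.0.5, featureCounts 1.5.0-p3 and hg38 were used, with the strand setting not given in the sources used here. The authors deposited 1 table with, per the file headers, whole-number counts and FPKM values per library. The authors also deposited their own comparison, with log2 fold changes, p-values and group means as a normalized signal. FPKM was used for levels between genes and for ratios within a library.

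Counts were filtered with filterByExpr (17299 genes, at least 99.7% of each library's counts), scaled by TMM and tested by group alone in edgeR 4.0.16 (glmQLFTest, R 4.3.3). Benjamini-Hochberg adjustment ran over all tested genes. Standard errors are the size of the log2 fold change divided by the root of the F statistic, and 95% intervals follow from them. They cover the spread between libraries only, and PCR copies cannot be recognised in counts. Exact permutation tests (scipy 1.17.1) compared ratios. Exon overlaps used GENCODE release 29.

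The 10 genes, the lists and the tests were chosen with earlier results of these data known. Text names the 10 genes, TCF19, up to 6 called genes per list by lowest p, called genes against their list's majority, and a few others (BACH1, CUL3, TALDO1, ME1, HMOX2, EPCAM, PAX8, GSTP1) chosen after their values were seen. A gene left out of the NADPH supply list and a sequence are not reported here. Alternatives were scaling by RLE, by upper quartile or by library size only, other filters, DESeq2 1.42.0, limma 3.58.1 (voom, and trend on log2(FPKM + 1)), a replicate block, a stricter adjusted p (0.01), protein-coding genes only and leaving out each library. The edgeR steps were tested on simulated counts.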

Additional observations from a re-analysis of the deposited data

How the results depend on the processing

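The same 6 of the 10 genes, GCLM, GSR, HMOX1, SRXN1, NQO1 and TXN, were called in the same direction in all 17 alternative settings, 4 higher and 2 lower. Among the 10 genes the sign changed for KEAP1, GCLC and TXNRD1, which were not called. The log2 fold change of KEAP1 was -0.0028 and became 0.0033 with upper-quartile scaling, 0.057 with library-size-only scaling and 0.0042 with protein-coding genes only, and it ran from -0.036 to 0.036 with 1 library left out. With library-size-only scaling GCLC went from -0.06 to 0.0039 and TXNRD1 to 0.0044. That scaling raised the share of higher genes among all calls from 49.9% to 61.4%. With the replicate block 3433 genes were higher and 3441 lower, and 4 and 2 of the 10 genes. Same-numbered libraries did not deviate together (r = 0.0086, -0.024 and 0.021), so the numbers were not taken as pairs. The GCLC to GCLM log2 ratio difference ran from -0.60 to -0.53 with 1 library left out. Depth limits HMOX1 most, with 11 to 15 counts per siNC library.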

Other observations

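The NRF2 core TGACNNNGC in the 300-base windows around gene starts was set beside the calls of the other pathway genes, as a description with no test. Of 17 tested genes of the 5 target lists with the core, 6 rose, 7 fell and 4 were not called (median log2 fold change -0.12). Of 31 without the core in a window, 12 rose, 6 fell and 13 were not called (median 0.09). These genes may hold the core outside the windows, which was not searched. Over all tested genes with a window, 26.2% of 2136 genes with the core rose and 21.8% fell, beside 22.8% and 24.3% of 9000 without it. Genes with the same core letters went different ways. SLC3A2 (0.47) and PIR (0.38), which rose, GSTP1 (-0.12), which fell, and ME1 (0.09), which was not called, all carry TGACTCAGC, given here in capitals with 10 bases on each side (RefSeq, GRCh38.p14). The call of GSTP1 (edgeR adjusted p = 0.0382) was lost in 10 of 17 alternatives, with adjusted p up to 0.419 without siTCF19 replicate 2, and ME1 was called higher with library-size-only scaling and without siTCF19 replicate 3.
SLC3A2, chr11:62881652-62881680, plus strand: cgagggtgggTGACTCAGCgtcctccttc
GSTP1, chr11:67583736-67583764, plus strand: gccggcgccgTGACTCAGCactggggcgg
ME1, chr6:83431170-83431198, minus strand: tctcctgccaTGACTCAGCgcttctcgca
PIR, chrX:15493289-15493317, plus strand: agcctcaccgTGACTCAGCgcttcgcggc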
